A study of Bos taurus with 4 samples.

Results

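The genes described here were *retreg1* (also named *fam134b*) and the other receptors of ER-phagy, the selective breakdown of endoplasmic reticulum (ER) by autophagy. Of 9 genes listed by function, 4 (*retreg1*, *rtn3*, *atl3* and *tex264*) were matched by their accession to 9 of the 43653 non-control probes of the array. The other 5 genes, *retreg2*, *retreg3*, *sec62*, *ccpg1* and *atl2*, had no probe under a matching accession and were not analysed here. The 4 genes are among 11054 named genes with a probe. All 9 probes passed the filter on dim probes, which 32606 probes passed. *Retreg1* was chosen by its measured log2 ratio on these same arrays, so its values are given as a description with no test, whereas the other genes were listed by function, with earlier results of these data known.

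Total RNA came from *m. semitendinosus*, a hindlimb muscle, of 15-month-old Hereford (HER, a beef breed) and Holstein-Friesian (HF, a dairy breed) bulls, 4 of each, with no treatment named in the labels. Pieces of the mid-belly were used after fat and connective tissue had been trimmed away, and the cells were not sorted. Each of the 4 two-colour arrays, all on 1 slide, carried RNA of 1 HER bull and 1 HF bull in the Cy3 and Cy5 dyes. In such whole-tissue RNA, fewer cells of a type and less RNA per cell cannot be told apart.

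The ER is removed piecemeal, in part through receptors that sit in its membrane. These carry an LC3-interacting region, a short motif that binds ATG8 proteins (the LC3 and GABARAP families) on the growing autophagosome. Each receptor works on its own part of the network: RETREG1 bends the membrane of ER sheets through a reticulon-homology domain, a long form of RTN3 fragments ER tubules, ATL3 is a GTPase of tubule junctions, and TEX264 spans the membrane once. In muscle fibres most of this membrane system is the sarcoplasmic reticulum, which stores the calcium for contraction.

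Median spot signals were 129 to 160.5 scanner units in Cy5 and 77 to 138 in Cy3 over local backgrounds of 37 to 41, and no spot was saturated. Between 76.7% and 82.1% of probes were well above background in Cy5, against 65.2% to 76.3% in Cy3, and Pearson's r of the ratios between pairs of arrays, over all tested probes, was 0.332 to 0.618. All ratios below are log2 of Cy5 over Cy3 after background correction and loess. Their breed direction is not settled: the dye labels put HF in Cy5 and HER in Cy3. The fold-change directions of the study instead run as if HER were in Cy5, for 108 of 111 genes matched by accession. For the genes it selected for qPCR, the study reports the directions of its array results. All arrays had 1 dye orientation, so an effect of the dye and an effect of breed cannot be told apart, and values are given as higher or lower in Cy5 with no breed named.

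*Retreg1* was measured by 2 probes, and at both the Cy5 signal far exceeded the Cy3 signal on every array. At the brighter probe, A_73_P033096, the signals as scanned on arrays 1 to 4 were 15827, 24032.5, 15495 and 25903.5 in Cy5. The Cy3 signals of the same spots were 1441, 1629.5, 2018.5 and 3913.5. The scanned ratio was thus 11-fold, 14.7-fold, 7.68-fold and 6.62-fold, before correction for the generally higher Cy5 signals. After normalization the log2 ratios were 1.91, 1.95, 1.88 and 2.06, a mean of 1.95 ± 0.08 (SD, n = 4) or 3.87-fold, so the arrays that differed in scanned ratio lay close together.

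At the dimmer *retreg1* probe, A_73_P204292, the scanned signals were 2765, 4894, 3052 and 5366.5 in Cy5 and 283, 365, 452 and 1103.5 in Cy3. The normalized log2 ratios were 1.85, 1.86, 1.74 and 1.77, a mean of 1.80 ± 0.06 (SD, n = 4) or 3.49-fold. The brighter probe gave the larger log2 ratio on each array, by 0.06, 0.10, 0.14 and 0.29, and the mean over both probes was 1.88 ± 0.05. The probe sequences were not used here, so which transcript each probe detects is not known.

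**Figure D1:**
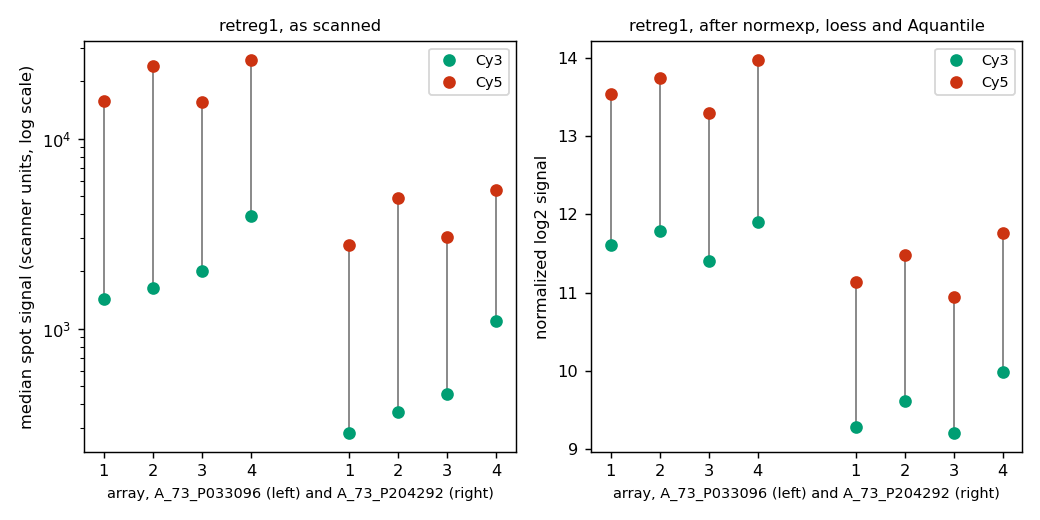
Signals of the 2 *retreg1* probes on the 4 arrays, as scanned (left, log axis, scanner units) and as normalized log2 signals (right), with a line joining the Cy3 and Cy5 values of a spot. The Cy5 point lies above the Cy3 point in all 8 pairs, and the normalized gaps, 1.74 to 2.06, are more alike than the scanned ones.

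The normalized log2 levels did not overlap between the dyes at either *retreg1* probe. They spanned 13.29 to 13.97 in Cy5 and 11.40 to 11.90 in Cy3 at A_73_P033096, and 10.95 to 11.76 against 9.21 to 9.99 at A_73_P204292. Over all tested probes, 7.63% had Cy5 levels that all lay above the Cy3 levels and 6.48% had them all below (14.1% together), and since the gene was chosen for its ratio nothing is read from that share. By mean log2 ratio the 2 probes ranked 26 and 34 from the top of the 32606 tested. On single arrays 51 to 88 probes had a higher ratio than A_73_P033096, and 74 to 171 had a higher one than A_73_P204292. Of the 645 tested probes with a mean log2 ratio of at least 1 in size, 3 had a smaller SD than A_73_P033096. For A_73_P204292 there was 1 such probe. These ranks come from the values by which the gene was chosen, so nothing is read from them.

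**Figure D2:**
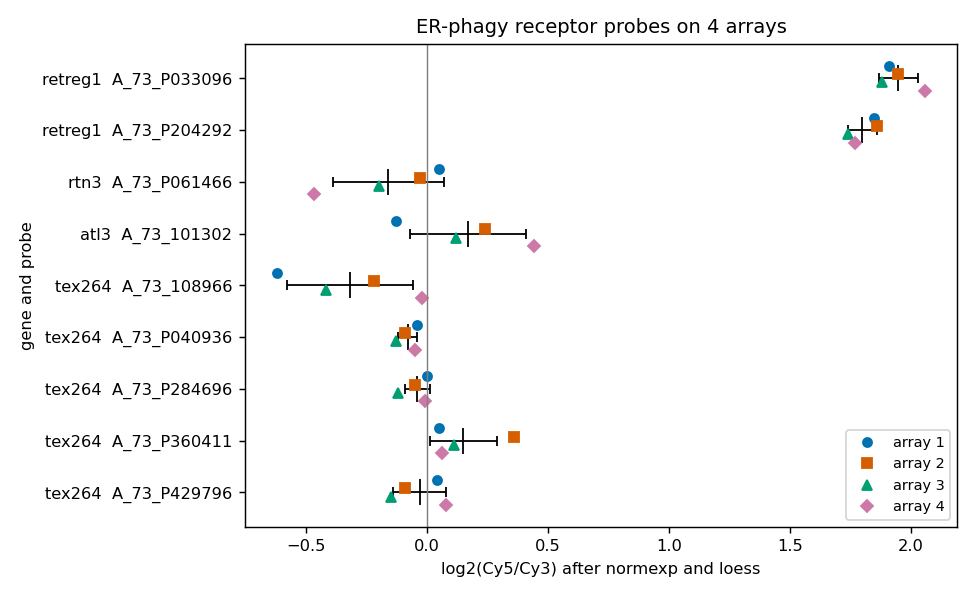
Log2(Cy5/Cy3) of each of the 9 receptor probes, with a point for each array and the mean and SD over 4 arrays. The 2 *retreg1* probes lie at 1.74 to 2.06, and every value of *rtn3*, *atl3* and *tex264* lies between -0.62 and 0.44.

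Of the 7 probes of *rtn3*, *atl3* and *tex264*, 0 passed the threshold of limma's moderated test (Benjamini-Hochberg adjusted p under 0.05 over all tested probes), against 3.31% of all tested probes (1.96% higher and 1.35% lower in Cy5). At an unadjusted p under 0.05 there was 1 such probe in limma and 1 in the methods' t-test. The share of all probes or genes at that unadjusted p is not given here. Such counts, here and below, are thus not read as many or few. A separate-channel fit called 0 of these probes, against 9.83% of all probes. With loess, 59.3% of the probes called over the whole array were higher in Cy5, and with each array centred on its median in its place 93.4% were. Median centring moved the median log2 ratio of all probes from 0.01 to 0.24, and several small values below change sign with it.

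*Tex264*, the single-pass receptor, had 5 probes. At its brightest, A_73_108966, the log2 ratios on arrays 1 to 4 were -0.62, -0.22, -0.42 and -0.02. Its mean was -0.32 ± 0.26 (SD, n = 4) with a 95% confidence interval of -0.61 to -0.04, limma's unadjusted p was 0.0322 and the adjusted p 0.16. It was lower in Cy5 on all 4 arrays with loess but at 0.29 with median centring (adjusted p = 0.155), and its levels overlapped, 9.99 to 10.57 in Cy5 and 10.53 to 10.88 in Cy3.

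The other 4 *tex264* probes lay nearer to 0. A_73_P040936 was at -0.08 ± 0.04, A_73_P284696 at -0.04 ± 0.05 and A_73_P429796 at -0.03 ± 0.11 (SD, n = 4), with limma adjusted p of 0.574, 0.765 and 0.87. With median centring these 3 were at 0.02, 0.15 and 0.38, and A_73_P429796 was also at 0.01 without array 3. The dimmest probe, A_73_P360411, was at 0.05, 0.36, 0.11 and 0.06 (limma adjusted p = 0.363) and at -0.15 with median centring, and on arrays 1 and 2 it was not well above background in Cy3. Its value was 0.65 with plain background subtraction and 0.75 with the scanner-processed signals, neither of which passed the threshold (adjusted p = 0.238 and 0.276). The mean over the 5 probes was -0.06 ± 0.07 (limma adjusted p = 0.613), which is nearer to 0 than its brightest probe alone.

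*Rtn3*, whose long form is the tubule receptor, had 1 probe, A_73_P061466, whose log2 ratios were 0.05, -0.03, -0.20 and -0.47. Which form this probe detects is not known, since the probe sequences were not used here. The mean was -0.16 ± 0.23 (SD, n = 4) with a 95% interval of -0.43 to 0.10 (limma adjusted p = 0.417), and it was 0.53 with median centring (adjusted p = 0.0655). Scanned Cy5 signals were 4948, 5907.5, 7025.5 and 5778.5, against 1714, 1615, 3904 and 5320 in Cy3, and the normalized levels overlapped.

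*Atl3*, which in the RefSeq gene order neighbours *rtn3*, also had 1 probe, A_73_101302. Its log2 ratios were -0.13, 0.24, 0.12 and 0.44, a mean of 0.17 ± 0.24 (SD, n = 4) with a 95% interval of -0.10 to 0.44 (limma adjusted p = 0.407). Its levels overlapped, 7.59 to 8.22 in Cy5 and 7.67 to 7.78 in Cy3. It passed the limma threshold with median centring (0.44, adjusted p = 0.042), a setting that called 32.9% of all tested probes. Relative to the median of all probes it was then at 0.20, against 0.16 with loess. The probe was dim, with scanned signals of 200.5 to 389 in Cy5 and 108 to 236 in Cy3.

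Set against the other receptors within an array, *retreg1* (at A_73_P033096) stood higher every time. Its log2 ratio exceeded that of *atl3* by 2.05, 1.71, 1.76 and 1.62 on arrays 1 to 4. It exceeded that of *rtn3* by 1.86, 1.99, 2.08 and 2.53, and that of the brightest *tex264* probe by 2.53, 2.18, 2.31 and 2.09. The mean differences were 1.78 ± 0.18, 2.12 ± 0.29 and 2.28 ± 0.19 (SD, n = 4), and no test is given because *retreg1* was chosen for its ratio.

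**Figure D3:**
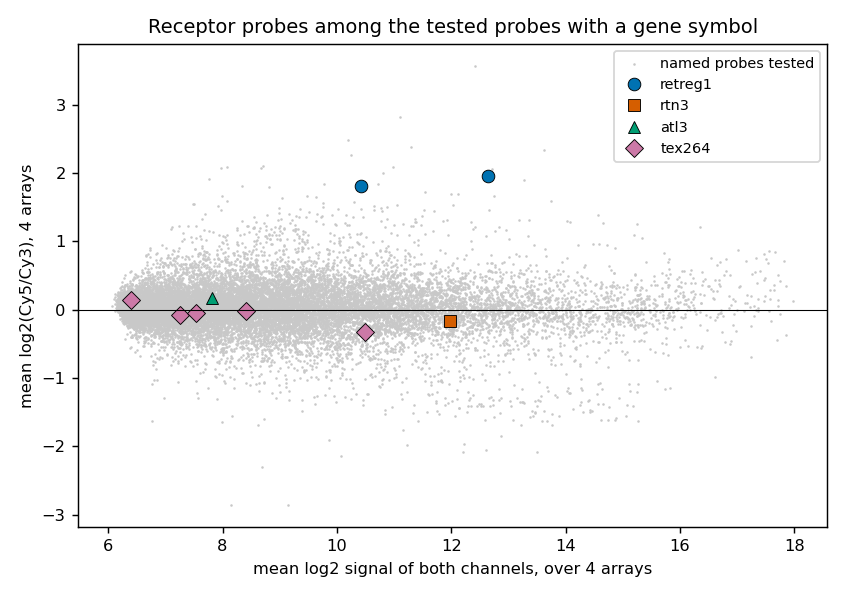
Mean log2(Cy5/Cy3) over 4 arrays against the mean log2 signal of the tested probes, with the receptor probes marked. The 2 *retreg1* probes, at 1.95 and 1.80, lie at the upper edge of the probes of like signal, and the 7 other receptor probes lie between -0.32 and 0.17.

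The 6 genes whose ratios over the 4 arrays were most like those of *retreg1* (by the root mean square difference from its brighter probe) are a description of likeness only. They were *LOC404103* (mean 2.00, difference 0.277), *cd5l* (2.07, 0.284), *pcolce2* (1.84, 0.302), *gadd45b* (1.65, 0.45), *cfd* (1.49, 0.491) and *klf15* (1.72, 0.499). CD5L is a secreted protein of macrophages, PCOLCE2 an enhancer of procollagen C-proteinase, GADD45B a stress-induced protein, CFD complement factor D and KLF15 a transcription factor that responds to glucocorticoids. For 3 of these genes another probe of the same gene was much lower: 0.30 for *cd5l*, 0.55 for *gadd45b* and 0.31 for *klf15*. The second *cfd* probe was at 1.16, so *retreg1* differed from *cd5l*, *gadd45b* and *klf15* in that both of its probes had a large ratio. The signals of the lower probes are not given here, and the part of probe signal in this contrast was not tested.

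ATG8 proteins are the partners that all ER-phagy receptors bind. Of the 5 measured of 6 listed, each represented by its brightest probe, 1 passed the threshold, higher in Cy5 (4.42% of all named genes tested were called, 2.91% higher and 1.52% lower). All 5 were above 0, with a median log2 ratio of 0.34 against 0.02 over 9425 named genes. *Map1lc3b*, which encodes the LC3 protein, was at 0.63, 0.88, 1.53 and 1.11, a mean of 1.04 ± 0.39 (SD, n = 4, limma adjusted p = 0.0377). Its second probe was at 0.56 (limma adjusted p = 0.101), and leaving out any 1 of the arrays ended the call (limma adjusted p = 0.0588 to 0.113). Over the whole array, leaving out 1 array cut the 1078 called probes to between 5 and 115. Calls lost in this way, here and below, are thus not particular to a gene. *Gabarapl1* was at 1.38, 1.76, 0.49 and 0.40, a mean of 1.01 ± 0.67 that did not pass (limma adjusted p = 0.0789), and its other 2 probes gave 1.03 and 1.00. *Gabarap* was at 0.34 ± 0.26 (limma adjusted p = 0.147).

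Of the genes of autophagosome formation and fusion, 23 of 30 listed were measured, and 1 passed, lower in Cy5 (4.35%, against 4.42% of all named genes). This was *atg4a*, a protease that trims ATG8 proteins, at -1.02, -1.28, -1.45 and -1.35 (mean -1.27 ± 0.19, n = 4, limma adjusted p = 0.0139). Without array 2, 3 or 4 in turn its adjusted p was 0.0594 to 0.0745. *Atg4d*, another protease of the family, was at -0.42 ± 0.28 (limma adjusted p = 0.106) but at 0.11 with median centring, and *atg7*, the enzyme that activates ATG8 proteins, was at 0.25 ± 0.11 (limma adjusted p = 0.131). The list had a median of 0.02, the same as that of all named genes.

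Among receptors of selective autophagy listed mainly for other cargo, 11 of 14 genes were measured. Of these, 2 were higher in Cy5, 1 was lower and 8 were not called. The share called was 27.3%, against 4.42% of all named genes, and the list was not tested as a set. *Bnip3*, a receptor of mitochondria, was at 0.65, 1.53, 1.05 and 1.42 (mean 1.16 ± 0.40, n = 4, limma adjusted p = 0.0332), and its second probe was at 0.55 (adjusted p = 0.0508). *Ncoa4*, the receptor that delivers ferritin, was at 0.60, 0.68, 0.96 and 0.86 (mean 0.78 ± 0.16, n = 4, limma adjusted p = 0.0283), and 4 of its 5 probes passed. *Optn*, a receptor of ubiquitinated cargo, was at -0.53, -0.37, -0.46 and -0.60 with loess (mean -0.49 ± 0.10, n = 4, limma adjusted p = 0.042) but at 0.24 with median centring (adjusted p = 0.254). The *optn* call also ended with plain background subtraction, scanner-processed signals or the series values (adjusted p = 0.0763, 0.0802 and 0.0802). It ended too in the separate-channel fit (0.1) and with an intensity trend in a robust eBayes (0.0571). The *bnip3* call ended without array 2, 3 or 4 in turn (limma adjusted p = 0.101 to 0.109). Leaving out any 1 array ended the *ncoa4* and *optn* calls (limma adjusted p = 0.0587 to 0.0963 and 0.084 to 0.119), while calls over the whole array fell to between 5 and 115. The list's median was 0.01.

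Of the genes of ER shaping and contact sites, 16 of 22 listed were measured, with a median of -0.10. In limma 1 passed, lower in Cy5 (6.25%, against 4.42% of all named genes). At an unadjusted p under 0.05 there were 7 in limma and 7 in the methods' t-test. *Ktn1*, which encodes the ER membrane protein kinectin, was at -1.03, -1.34, -0.59 and -0.96 (mean -0.98 ± 0.31, n = 4, limma adjusted p = 0.0326). All 5 of its probes lay between -0.98 and -0.75, and those at -0.83 and -0.75 did not pass (limma adjusted p = 0.0592 and 0.0694). Its brightest probe did not pass with median centring (-0.28, adjusted p = 0.146), nor on any 3 of the 4 arrays (adjusted p = 0.0664 to 0.1). *Reep1*, which shapes ER tubules, was at -0.59 ± 0.34 and *lnpk*, a protein of tubule junctions, at -0.44 ± 0.21 (both limma adjusted p = 0.0719), and median centring put them at 0.03 and 0.12.

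Among partners and regulators of ER-phagy receptors, 16 of 21 listed were measured and 0 passed in limma, against 4.42% of all named genes. At an unadjusted p under 0.05 there were 3 in limma and 4 in the methods' t-test. The separate-channel fit called 1 gene, against 9.83% of all probes, a share of probes and not of genes. *Camk2d*, a subunit of the calcium-dependent kinase CaMKII that phosphorylates RETREG1, was at -0.96, -0.28, -0.84 and -0.62 at its brightest probe (mean -0.68 ± 0.30, n = 4, limma adjusted p = 0.0528) but at 0.10 with median centring. Of its 3 other probes 2 passed, at -0.65 and -0.66 (adjusted p = 0.0419 and 0.0374), and the third was at -0.52 (adjusted p = 0.0567). *Cdk5rap3* was at 0.37 ± 0.20 (limma adjusted p = 0.0948). *Canx*, the lectin chaperone through which RETREG1 reaches misfolded procollagen, was at -0.07 (limma adjusted p = 0.775).

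ER protein import, the pathway of the receptor SEC62, had 15 of 17 listed genes measured and 0 called in limma, against 4.42% of all named genes. At an unadjusted p under 0.05 there were 3 in limma and 0 in the methods' t-test. The separate-channel fit called 1 gene, against 9.83% of all probes, a share of probes and not of genes. The 3 with the lowest p were *tram1* at -0.44 ± 0.28, *sec61a1* at 0.42 ± 0.34 and *ssr1* at 0.35 ± 0.26 on the 3 arrays that measured it (limma adjusted p = 0.0987, 0.142 and 0.197). The median was 0.01.

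The unfolded protein response, which signals misfolded protein in the ER, had 21 of 27 listed genes measured, with a median of 0.06. In limma 1 was called, higher in Cy5 (4.76%, against 4.42% of all named genes). At an unadjusted p under 0.05 there were 9 in limma and 5 in the methods' t-test. *Edem1*, which directs misfolded glycoproteins to degradation, was at 0.56, 0.67, 0.54 and 0.99 (mean 0.69 ± 0.21, n = 4, limma adjusted p = 0.0376), and its 2 other probes were at 0.30 and 0.25. Leaving out any 1 array ended its call (adjusted p = 0.0666 to 0.123). *Ddit3*, the transcription factor CHOP, was at 0.86 ± 0.44 and *dnajc3*, an ER co-chaperone, at -0.71 ± 0.38 (limma adjusted p = 0.0566 and 0.0606), in opposite directions.

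Procollagen is a known client of RETREG1-dependent ER-phagy, and of 17 listed genes of procollagens and their folding in the ER, 13 were measured and 3 passed, all lower in Cy5, with a median of -0.15. The share called was 23.1%, against 4.42% of all named genes (1.52% lower), and the list was not tested as a set. *Col1a1* was at -2.36, -1.25, -2.78 and -1.82 (mean -2.05 ± 0.67, n = 4, limma adjusted p = 0.029). Its other probes were at -1.48, -1.31, -0.62 and -0.54, of which the last did not pass (limma adjusted p = 0.0528). *Col3a1* was at -2.15, -0.70, -2.01 and -1.87 (mean -1.68 ± 0.67, n = 4, limma adjusted p = 0.0368). Its other probes lay between -2.08 and -0.81, and the one at -0.81 did not pass (limma adjusted p = 0.0504). *Serpinh1*, the collagen chaperone HSP47, was at -1.59, -1.59, -1.24 and -0.64 (mean -1.26 ± 0.45, n = 4, limma adjusted p = 0.034). Its other probes were at -1.03 and -0.44 (limma adjusted p = 0.0331 and 0.0594). Array 2 was the least negative for both collagens, and 4 of the 13 measured genes of the list were above 0. Leaving out any 1 array ended the calls of *col1a1* and *serpinh1* (limma adjusted p = 0.0578 to 0.09 and 0.0545 to 0.113), and leaving out array 1, 3 or 4 ended that of *col3a1* (0.0701 to 0.111).

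**Figure D4:**
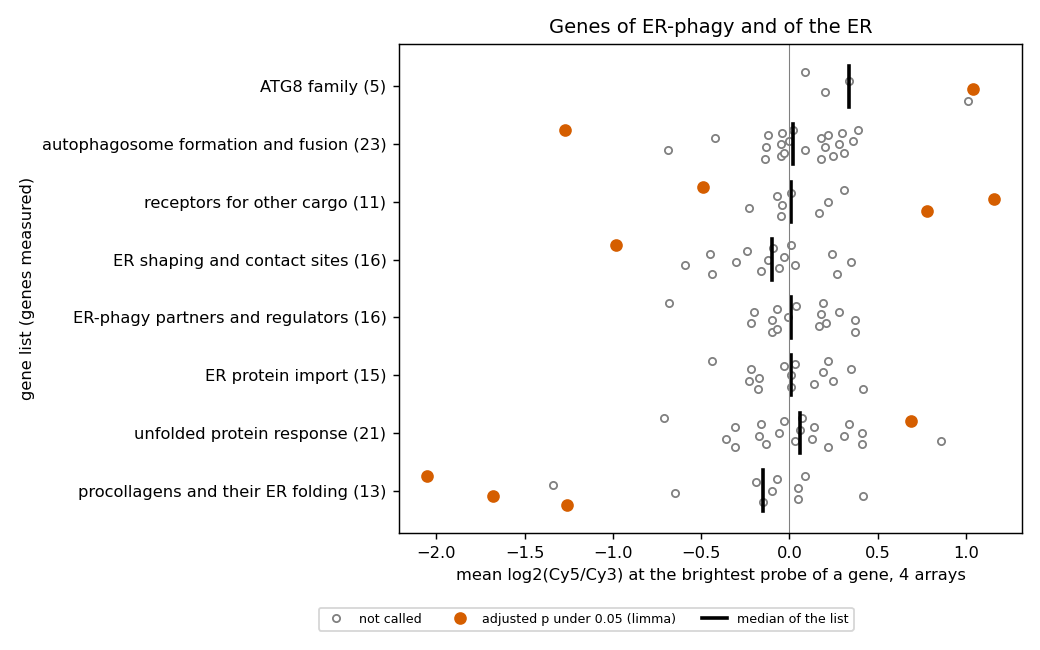
Mean log2(Cy5/Cy3) over 4 arrays of the measured genes of 8 lists, each gene at its brightest probe, with filled points for an adjusted p under 0.05 in limma and a bar at the median of the list. The medians lie between -0.15 and 0.34, and the called genes are 1 ATG8 gene, 1 of autophagosome formation, 3 receptors for other cargo, 1 ER-shaping gene, 1 gene of the unfolded protein response and 3 procollagen genes.

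The tissue label was checked against skeletal muscle markers, of which 8 of 10 were measured at high signal with a median log2 ratio of 0.21. Their summed signal was 1530000 to 1740000 in Cy5 and 1350000 to 1500000 in Cy3. Macrophage markers, all 5 measured, had a median of 0.50 and summed 2140 to 3320 in Cy5 against 1670 to 2060 in Cy3. Adipocyte markers, 4 of 5 measured, had a median of -0.47 and summed 445 to 1060 against 489 to 4280. Fibroblast markers, 4 of 5 measured, had a median of 0.21 and summed 28300 to 43000 against 23600 to 36800. Endothelial markers, 4 of 5 measured, had a median of 0.00 and summed 3930 to 6280 against 3300 to 5050. Schwann cell and nerve markers, 4 of 5 measured, had a median of 0.19 and summed 2360 to 5770 against 3490 to 4680, and blood markers, 3 of 5 measured, had a median of 0.34 and summed 17400 to 24000 against 12700 to 27800. The defining markers *nefl* of nerve and *alas2* of red cells did not pass the filter on dim probes. In limma 0 genes were called in each of these 7 lists, against 4.42% of all named genes. At an unadjusted p under 0.05 there were 11 in all in limma and 5 by the methods' t-test. No share of all genes is given at that p. The separate-channel fit called 4 genes, against 9.83% of all probes, a share of probes and not of genes. The part of these cell types in the *retreg1* ratio was not tested.

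**Figure D5:**
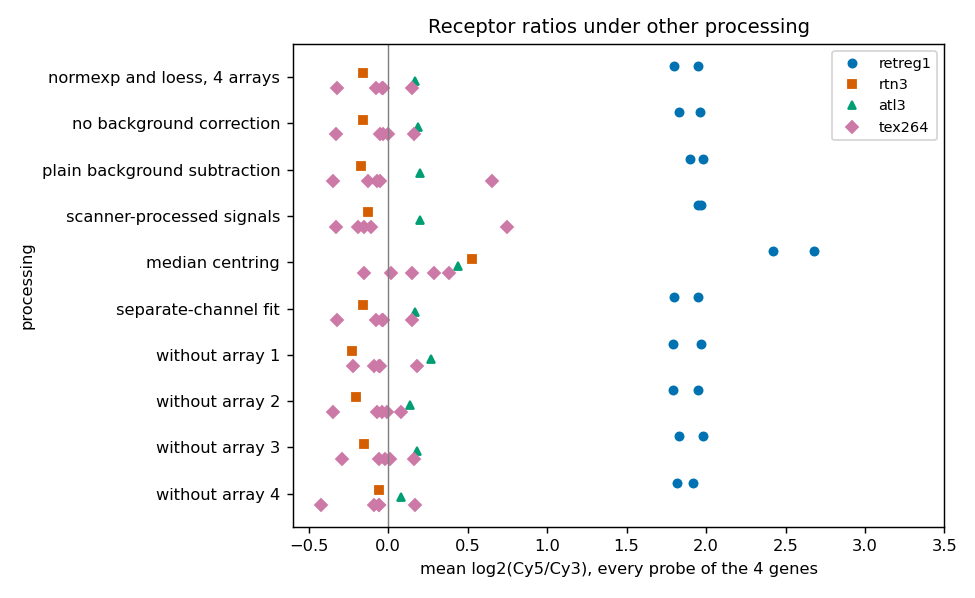
Mean log2(Cy5/Cy3) of every receptor probe under the processing used here and 9 alternatives, 4 of which leave out an array. The *retreg1* probes lie between 1.79 and 2.68 in all of them. The values of *rtn3* and of 4 *tex264* probes cross to above 0 with median centring, which put the median of all probes at 0.24.

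The *retreg1* ratio stayed large under every alternative processing tried, but several of these could not change it. Other filters on dim probes, an intensity trend with robust prior and the separate-channel fit left the means at 1.95 and 1.80. The series values repeat the scanner-processed signals. Over 13 alternatives the ratio was 1.92 to 2.68 at A_73_P033096 and 1.79 to 2.42 at A_73_P204292, the highest values being those with median centring. Relative to the shifted median of all probes, those highest values were 2.44 and 2.19.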

How the data were processed

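RNA of 4 HER and 4 HF bulls was hybridized in pairs to 4 arrays. The deposited files hold spot intensities, extracted by the authors with Agilent Feature Extraction 10.7.3.1 against annotation of build Btau 3.1, and the deposited log10 ratios of Cy5 over Cy3. The log10 ratios served as an alternative and are the scanner software's own dye-normalized ratios. Median intensities were corrected here by normexp (offset 50) and normalized by loess, with control and outlier spots at weight 0, in limma 3.58.1 (R 4.3.3). Probes well above background on all arrays in either dye were tested against 0 with eBayes, and p-values were adjusted by Benjamini-Hochberg over 32606 probes. The number of arrays limits the precision. Accessions were matched to the RefSeq gene table (ARS-UCD 2.0), which gave symbols and neighbours only. Log2 levels per dye come after Aquantile. Genes were represented by their brightest probe, and the text names the called genes of each pathway list (up to 6, and the lowest p up to 3 where fewer were called), and the 6 genes most like *retreg1*. A gene that this rule names is not reported here. *Canx* was added for its role after its value was seen, and markers are given as lists. The receptors and lists were chosen with earlier results of these data known. The methods' t-test with its threshold (p of at most 0.05, fold change of at least 1.3) was an alternative. The test was checked on simulated data.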

Additional observations from a re-analysis of the deposited data

Results flagged for a closer look

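Of 46 groups of 4 array values checked, 2 held an array far from the others, and chance flags about 1 group in 20. *Reep1*, which shapes ER tubules, had a log2 ratio of -0.09 on array 2 and of -0.79 to -0.73 on the other arrays, a gap of 0.912 of the range. *Gadd45b*, among the genes most like *retreg1*, had 1.00 on array 3 and 1.82 to 1.93 on the others, a gap of 0.886 of the range.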

How the results depend on the processing

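Direction was kept by *retreg1* under all 13 alternatives, though those that change only the filter or the fit could not move its mean. The sizes moved beyond the spread of the arrays at A_73_P204292 with plain background subtraction (1.90) and with scanner-processed signals or the series table (1.97 each). At both probes they did so with median centring (2.68 and 2.42). Median centring turned *rtn3* (0.53) and *tex264* (0.29, 0.02, 0.15, -0.15 and 0.38), made *atl3* pass (0.44), and turned *lnpk* (0.12), *reep1* (0.03), *camk2d* (0.10), *atg4d* (0.11), *optn* (0.24) and *s100b* (0.04). It also put the median of all probes at 0.24, above *lnpk*, *reep1*, *camk2d*, *atg4d* and *s100b*. Relative to that median *rtn3* was at 0.29, *tex264* at 0.06, -0.22, -0.09, -0.38 and 0.15, and *atl3* at 0.20 (0.16 with loess). A_73_P429796 of *tex264* was -0.06 to 0.01 without 1 array. Probes called over the array were 1078 (639 higher, 439 lower, 3.31% of those tested), and became 10725 (10013 and 712, 32.9%) with median centring. They became 1666 (974 and 692, 5.11%) with an intensity trend and robust prior, and 3205 (1741 and 1464, 9.83%) with the separate-channel fit. They became 0 (0 and 0) with the methods' t-test after adjustment, 2887 with that test at the methods' threshold and 4707 with the methods' criterion on limma values. Without 1 array they were 5 to 115 (4 to 77 higher, 0 to 38 lower). Each of the 10 called genes of the pathway lists lost its call on leaving out at least 1 array. Genes called with median centring were 5 of the ATG8 family, 15 of autophagosome formation, 9 receptors for other cargo, 8 of ER shaping, 12 partners, 11 of import, 11 of the unfolded protein response, 8 of procollagen, 6 muscle, 1 endothelium, 4 macrophage, 3 fibroblast and 2 blood markers. With the separate-channel fit they were 2 of autophagosome formation, 4 of shaping, 1 partner, 1 of import, 4 of the unfolded protein response, 6 of procollagen, 3 muscle and 1 macrophage. The t-test after adjustment called 0 in the ATG8, autophagosome, other-cargo, shaping, unfolded protein response and procollagen lists. At an unadjusted p under 0.05, limma had 3 ATG8, 4 autophagosome, 4 other-cargo and 6 procollagen genes. The methods' t-test had 1, 4, 4 and 5 of these, with no share of all genes given at that p. Partners, muscle and macrophage each had 1 call without background correction and with a stricter filter, which also gave 2 for the unfolded protein response. With the trend and robust prior 1 partner, 1 muscle, 1 macrophage and 1 blood gene and 3 of the unfolded protein response were called. With the mean over probes 1 partner, 1 macrophage, 2 unfolded protein response and 5 procollagen genes were called. Plain subtraction gave 2 unfolded protein response, 1 macrophage and 2 blood calls, and scanner-processed signals or the series values gave 2, 1 and 1 of these. Without 1 array, 0 ATG8, shaping and unfolded protein response genes, 0 to 1 autophagosome, 0 to 1 other-cargo and 0 to 1 procollagen genes were called. The cause of these changes was not tested. The pairing of bulls was kept, because each array holds its pair as 1 ratio and the test set these ratios against 0. All arrays form 1 group. Dim probes such as A_73_P360411, near background in Cy3, limit what can be read from *tex264*.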
